A study of Mus musculus with 14 samples.

Results

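The 5580 H3K27me3 peaks on chromosome 8 were taken from the 74458 peaks counted in mouse embryonic stem cells (mESCs) with 1 of 3 engineered deletions. Every peak placed on chromosome 8 was a member, so that no measured value chose any of them. Of these peaks, 5579 passed the filter on low counts and were tested, among 74441 tested peaks in all. H3K27me3 was profiled by Cut&Tag, in which an antibody guides a transposase to chromatin that carries the mark, and the cut fragments are sequenced. The cells were G4 mESCs, a hybrid line of 129/Sv and C57BL/6 parentage grown with leukaemia inhibitory factor on CD1 feeder cells. In each group CRISPR-Cas9 had removed from both alleles an anchor of Polycomb loops, in the Hoxa cluster (HoxaDel, 3 libraries), near Wnt6 (Wnt6Del, 2 libraries) or near Hmx1 (Hmx1Del, 2 libraries). All 3 loci lie on other chromosomes, so that none of the deletions removed sequence from chromosome 8. No undeleted cells were among the H3K27me3 libraries analysed here, and the study writes of the clone of each anchor deletion, while the labels name none. A difference between HoxaDel and the other deletions therefore cannot be told apart from a difference between clones.

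H3K27me3 is placed by Polycomb repressive complex PRC2 and marks genes that are held silent, above all regulators of development whose promoters are rich in CG dinucleotides. In mESCs such promoters lie within broad domains of the mark, and weaker peaks are scattered through and between genes. The reads over a peak follow the number of DNA copies as well as the mark on each copy, and DNA copies were not measured here, so that fewer copies of chromosome 8 and less H3K27me3 per copy cannot be told apart. In culture, mouse embryonic stem cells can gain or lose whole chromosomes, and chromosome 8 is often among those gained. The labelled cell type was set against its markers. No tested peak lay within 2 kb of Nanog or Dppa4, 2 of 8 genes of the mESC state, and the peak of highest CPM at Zfp42, the member of that list on chromosome 8, held 3.06 CPM (counts scaled to library size). The list was not free of the mark throughout: the highest peak at Esrrb held 106.5 CPM. Nor was it equal between groups. The highest peak at Klf4 had means of 22.7 CPM in HoxaDel and 12.5 CPM in the other libraries (edgeR adjusted p = 2.1e-05, chromosome medians removed as described below). In that fit 3 of the list's 31 peaks were higher in HoxaDel and 0 lower at an adjusted p under 0.05. Over all tested peaks the shares were 3.12% and 1.05%.

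Promoters are shown for a peak that departed from the chromosome and for 3 of the strongest chromosome 8 peaks, which did not. Each is the RefSeq window from 250 bases before to 50 bases after the gene's start on GRCm38.p6, the same build as mm10, and CG dinucleotides are in capitals.
Slc7a6 promoter, chr8:106168671-106168970, plus strand: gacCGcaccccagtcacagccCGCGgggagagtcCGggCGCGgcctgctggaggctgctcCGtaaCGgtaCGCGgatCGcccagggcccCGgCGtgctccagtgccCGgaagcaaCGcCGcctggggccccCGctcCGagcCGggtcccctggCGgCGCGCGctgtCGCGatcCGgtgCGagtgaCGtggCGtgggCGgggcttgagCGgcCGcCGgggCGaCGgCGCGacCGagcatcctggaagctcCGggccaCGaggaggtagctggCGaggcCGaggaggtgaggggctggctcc
Trim67 promoter, chr8:124792769-124793068, plus strand: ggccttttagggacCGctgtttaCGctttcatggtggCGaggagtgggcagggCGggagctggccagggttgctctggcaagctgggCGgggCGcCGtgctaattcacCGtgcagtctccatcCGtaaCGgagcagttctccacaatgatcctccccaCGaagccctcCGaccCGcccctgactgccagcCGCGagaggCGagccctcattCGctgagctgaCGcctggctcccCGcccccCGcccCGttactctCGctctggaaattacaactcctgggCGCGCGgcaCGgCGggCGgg
Rasd2 promoter, chr8:75213694-75213993, plus strand: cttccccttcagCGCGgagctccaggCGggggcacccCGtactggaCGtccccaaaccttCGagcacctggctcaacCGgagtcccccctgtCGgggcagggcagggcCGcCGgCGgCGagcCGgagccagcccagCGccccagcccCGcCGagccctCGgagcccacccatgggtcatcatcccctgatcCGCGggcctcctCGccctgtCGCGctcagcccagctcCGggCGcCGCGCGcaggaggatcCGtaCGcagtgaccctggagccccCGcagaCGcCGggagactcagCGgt
Col4a1 promoter, chr8:11312777-11313076, minus strand: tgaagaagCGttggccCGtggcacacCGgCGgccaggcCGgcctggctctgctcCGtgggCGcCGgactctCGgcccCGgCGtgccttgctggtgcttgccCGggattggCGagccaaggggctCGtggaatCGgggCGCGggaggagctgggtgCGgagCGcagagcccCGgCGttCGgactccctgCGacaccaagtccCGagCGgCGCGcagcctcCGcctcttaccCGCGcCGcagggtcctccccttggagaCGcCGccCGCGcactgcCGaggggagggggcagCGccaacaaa
The Slc7a6 window held 42 CG dinucleotides, the Col4a1 window 37, the Rasd2 window 33 and the Trim67 window 28. Over all 32851 promoter windows the median was 7, and 3.03%, 5.58%, 8.56% and 14.2% of windows held at least as many as these. The motif searched was the dinucleotide CG, which reads the same on both strands. Promoter windows met 579 of the 5579 tested chromosome 8 peaks, and the windows under those peaks had a median of 20 CG dinucleotides.

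The HoxaDel libraries held a smaller share of their counts on chromosome 8 than either of the other deletions. In HoxaDel the share was 5.45%, 5.46% and 5.49% of all counts, with a mean of 5.47% ± 0.0207 (SD, n = 3). In Wnt6Del it was 7.92% and 7.81%, and in Hmx1Del 7.95% and 7.81%, with a mean of 7.87% ± 0.0718 (SD, n = 4) over both deletions. The groups did not overlap, and the gap was far wider than the spread within either. The Wilson 95% interval of a library's share, which covers counting error only, reached at most 0.0216 percentage points to either side. The difference of -2.41 percentage points had p = 0.0571 in a two-sided exact permutation test over samples, the smallest p that 3 libraries against 4 can give. Total counts ran from 6016500 to 36563541 per library, and the median chromosome 8 peak held 23 to 156 counts.

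Taken peak by peak, the same shift ran through nearly the whole chromosome. For each library, the median over chromosome 8 peaks of the log2 CPM deviation from the mean of the 7 libraries was set against that of the other autosomes. It was -0.34, -0.33 and -0.33 in HoxaDel, 0.25 and 0.28 in Wnt6Del, and 0.26 and 0.25 in Hmx1Del. HoxaDel was lower by a difference of -0.59 on the log2 scale, a linear ratio of 0.662 (exact permutation test, two-sided, p = 0.0571, the smallest this design allows). In the fit of HoxaDel against both other deletions, 5391 of 5579 chromosome 8 peaks (96.6%) had a log2 fold change below 0. Their median was -0.59, and the middle of the distribution, from its lower to its upper quartile, ran from -0.81 to -0.39. The medians of the 18 other autosomes lay between -0.01 and 0.08.

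**Figure D1:**
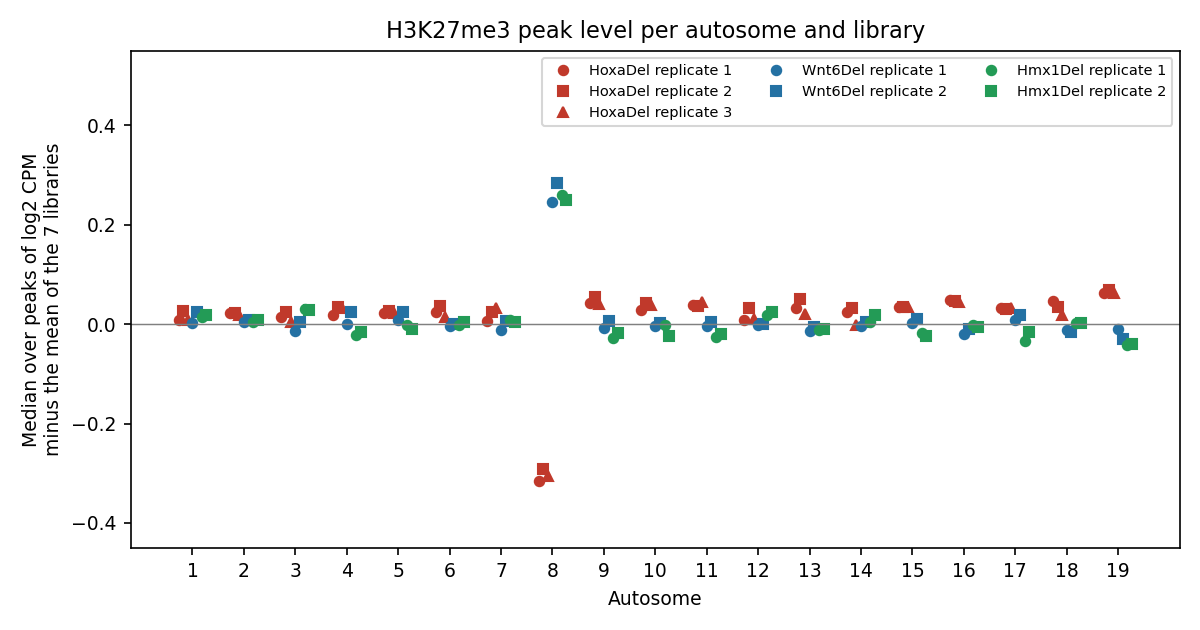
Median over the peaks of each autosome of log2 CPM minus the mean of the 7 libraries, with a point for each library. On chromosome 8 the 3 HoxaDel libraries sit between -0.32 and -0.29 and the 4 other libraries between 0.25 and 0.28, while on the other autosomes all 7 lie between -0.04 and 0.07.

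Both pairs that contain HoxaDel held the shift, and the pair without it had a median near 0. In a fit with a term for each genotype, the chromosome 8 median was -0.58 for HoxaDel against Wnt6Del and -0.58 for HoxaDel against Hmx1Del. These 2 comparisons share the HoxaDel libraries. For Wnt6Del against Hmx1Del the median was 0.01, with 47.8% of peaks below 0. No chromosome 8 peak was called in that pair by edgeR's quasi-likelihood test, with or without the chromosome median removed. With it removed, 259 of 5579 had an unadjusted p under 0.05, and this was not counted outside chromosome 8.

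Before the chromosome median was removed, edgeR's quasi-likelihood test called 533 chromosome 8 peaks lower in HoxaDel and 0 higher. Calls needed a log2 fold change beyond 1 in size and an adjusted p (Benjamini-Hochberg, over all tested peaks) under 0.05. The 533 were 9.55% of the tested chromosome 8 peaks, beside 0.983% called lower over all tested peaks and 0.289% outside chromosome 8. Of all tested peaks, 0.566% were called higher. With no minimum on the fold change, 2276 chromosome 8 peaks were lower and 2 higher. The higher peaks, both described below, were one that overlapped no gene, with Adgrl1 as the nearest coding gene (log2 fold change 0.34, adjusted p = 0.0329), and the Slc7a6 promoter peak (0.47, adjusted p = 0.0074). The called peaks were weak and narrow ones: their median level was 0.97 log2 CPM against 1.78 over the chromosome, and their median width 371 bp against 444 bp.

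Chromosome 8 was dense in narrow, weak peaks. It carried 44.2 peaks per Mb, where the other autosomes ranged from 22.9 to 45.2, and chromosome 11 alone was denser. Its median peak width of 444 bp was below the range of 468 to 500 bp elsewhere. Its median peak level of 1.78 log2 CPM was just below the 1.79 to 2.14 of the other autosomes. The libraries on which peaks were called are not given in the sources used here, and their part in these values was not tested.

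The chromosome's median was then removed. In each library, the median deviation of log2 CPM over the peaks of a chromosome was added to that chromosome's offsets, and the same test was run again. After this step 14 chromosome 8 peaks were called lower in HoxaDel and 3 higher. These are 0.251% and 0.0538% of the chromosome's tested peaks. An unadjusted p under 0.05 was held by 958 of the 5579, a count that was not taken outside chromosome 8 and so has no background here. Over all tested peaks the same fit called 0.253% lower and 0.426% higher. The share called lower on chromosome 8 was near the first value, and the share called higher was below the second. Chromosome 6, which carries the Hoxa deletion, held 73 of the 188 lower calls in that background. Without it the background share called lower would be smaller than 0.253%. The 17 calls were 0.305% of the peaks, and the other autosomes ranged from 0.249% to 2.97%. The 2.97% was that of chromosome 6, and the next highest was 0.885% on chromosome 5. With Hmx1Del replicate 2 left out 8 were lower, and with HoxaDel replicate 3 left out 9 were higher. All 14 lower peaks were among the 533 called before. The other 519 lost their call, although 43 of them kept an adjusted p under 0.05 (edgeR's quasi-likelihood test). The median log2 fold change of the 519 was then -0.63. All 533 had been chosen for a log2 fold change below -1, so that values below 0 after the median was removed follow from that choice. The spread of fold changes, as the interquartile range, was 0.42 on chromosome 8 and 0.35 to 0.46 on the other autosomes.

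The strongest chromosome 8 peaks followed the chromosome's shift closely. These 5 peaks had the highest mean CPM per peak, not divided by width. At the peak over the start of Trim67, a ubiquitin ligase gene active mainly in neurons (chr8:124792829-124796188), CPM was 337.0, 315.4 and 336.8 in HoxaDel. It was 504.9 and 428.0 in Wnt6Del and 496.9 and 502.0 in Hmx1Del. All HoxaDel libraries were below all others, with a log2 fold change of -0.55 ± 0.07 (SE, n = 3 and 4), and after the median was removed 0.01 was left. At Rasd2, a small GTPase gene of the striatum (chr8:75212652-75216218), CPM was 322.7, 282.9 and 306.3 in HoxaDel against 387.7 to 486.7 elsewhere. The log2 fold change there was -0.58, and -0.02 after the median was removed. Col4a1 and Col4a2 encode collagen IV chains of basement membranes and share a peak over their divergent starts (chr8:11311975-11314858). That peak held 293.4, 263.2 and 275.1 CPM in HoxaDel and 354.8 to 438.6 elsewhere, with log2 fold changes of -0.56 before and 0.00 after. The peaks at Fbxl8 and Hsf4 and at Cilp2 had values of 0.10 and -0.05 after the median was removed. None of the 5 was called in either fit. Before the median was removed, their adjusted p in edgeR's test ran from 6.7e-09 to 1.6e-06, and only the fold minimum kept them from a call. After it was removed, the lowest was 0.495.

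The 3 peaks called higher were raised against the rest of chromosome 8, and less so in plain CPM. At the Slc7a6 promoter printed above, CPM was 23.7, 24.3 and 19.3 in HoxaDel, 15.4 and 17.3 in Wnt6Del and 14.9 and 16.4 in Hmx1Del. All HoxaDel libraries lay above all others. Slc7a6 encodes an amino acid transporter subunit, and the peak, chr8:106168314-106169674, was the only called peak of the 17 to meet a promoter window. Its log2 fold change was 0.47 before and 1.03 ± 0.12 (SE) after the median was removed (edgeR adjusted p = 2.1e-08). At chr8:84183585-84184255, between genes and 7.03 kb from Nanos3, a germ cell RNA-binding protein gene, CPM was 6.11, 5.24 and 5.48 in HoxaDel against 3.04 to 4.65 elsewhere. The log2 fold change was 0.57 before and 1.14 ± 0.19 (SE) after (edgeR adjusted p = 7.7e-05). At Gdf15, a stress-induced cytokine of the TGF-beta family (chr8:70630916-70631575), CPM was 4.47, 5.85 and 4.90 in HoxaDel and 3.19, 4.18, 4.73 and 3.35 in the other libraries. The groups overlapped in CPM there. They separated once the chromosome median was removed, which the rule for naming peaks required. The log2 fold change was then 1.01 ± 0.19 (SE) and the edgeR adjusted p 0.0006. This peak is close to the fold minimum and kept its call in 14 of 20 refits under other settings.

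Of the peaks called lower, 12 were weak, with at most 7.27 CPM in any library. Gpm6a, a neuronal membrane glycoprotein gene, held a peak at chr8:54848950-54849751 with 2.70, 1.45 and 1.87 CPM in HoxaDel and 5.82 to 6.59 CPM elsewhere. Its log2 fold change after the median was removed was -1.13 ± 0.22 (SE; edgeR adjusted p = 0.00078). Within Cdh11, a cadherin gene of mesenchymal cells, the peak at chr8:102711109-102711461 held 0.47, 0.84 and 0.26 CPM in HoxaDel, which were 4, 22 and 4 counts. It held 2.47 to 3.55 CPM elsewhere, and -1.71 ± 0.36 (SE) on the log2 scale after the median was removed was the lowest value of the 17. Without HoxaDel replicate 2 it was -2.46, and without HoxaDel replicate 3 -1.37. The remaining named peaks lay between genes or inside other ones. A peak 14.9 kb from Maf, a bZIP transcription factor gene, held 0.90 to 1.06 CPM in HoxaDel and 3.00 to 4.56 CPM elsewhere (-1.23 after the median was removed). A peak 101 kb from Cdh5, the cadherin gene of endothelium, held 1.03 to 1.41 CPM against 2.87 to 4.84 CPM (-1.14). A peak inside Chd9, a chromodomain helicase gene, held 1.06 to 1.93 CPM against 3.45 to 7.27 CPM (-1.03). In all 3 the groups did not overlap, but the rule by which peaks were named required this after the median was removed. The Chd9 call was kept in 13 of 20 refits under other settings, and against Wnt6Del alone the value was -0.74 (edgeR adjusted p = 0.237).

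Peaks outside coding genes made up the rest, apart from the one within Csmd1. A peak 921 kb from Cdh11, the nearest coding gene, stood at -1.10 after the median was removed. One inside the non-coding gene A330008L17Rik, 108 kb from the neural cadherin gene Cdh8, stood at -1.42, with 3 counts in a HoxaDel library. That value was -2.02 without HoxaDel replicate 2 and -0.99 without HoxaDel replicate 3 (edgeR adjusted p = 0.15). One 43.6 kb from Mfhas1 stood at -1.42 as well and was -1.03 without HoxaDel replicate 2 (edgeR adjusted p = 0.226). Those outside the naming rule were peaks 118 kb and 52.3 kb from Irx5, a homeobox gene (-1.01 and -1.42), one 93.1 kb from Myom2, just past the fold minimum, and one within Csmd1, a brain membrane protein gene (-1.22). Across the 14 lower peaks, 7 overlapped a gene and 0 met a promoter window. Of all tested chromosome 8 peaks, 60.5% overlapped a gene and 10.4% met a promoter window. In the pairwise fits, 4 of the 14 lower peaks and all 3 higher peaks passed an adjusted p of 0.05 and the fold minimum against each of the other deletions. None of the 17 passed an adjusted p of 0.05 between Wnt6Del and Hmx1Del. The 17 were chosen on the same libraries with Wnt6Del and Hmx1Del pooled, which favours peaks where these agree, so that neither count is separate support. Over all chromosome 8 peaks, the centred pairwise fits called 7 lower and 6 higher against Wnt6Del, and 13 lower and 14 higher against Hmx1Del. In either direction, 0.544%, 0.923% and 0.0887% of all tested peaks were called for HoxaDel against Wnt6Del, HoxaDel against Hmx1Del and Wnt6Del against Hmx1Del.

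**Figure D2:**
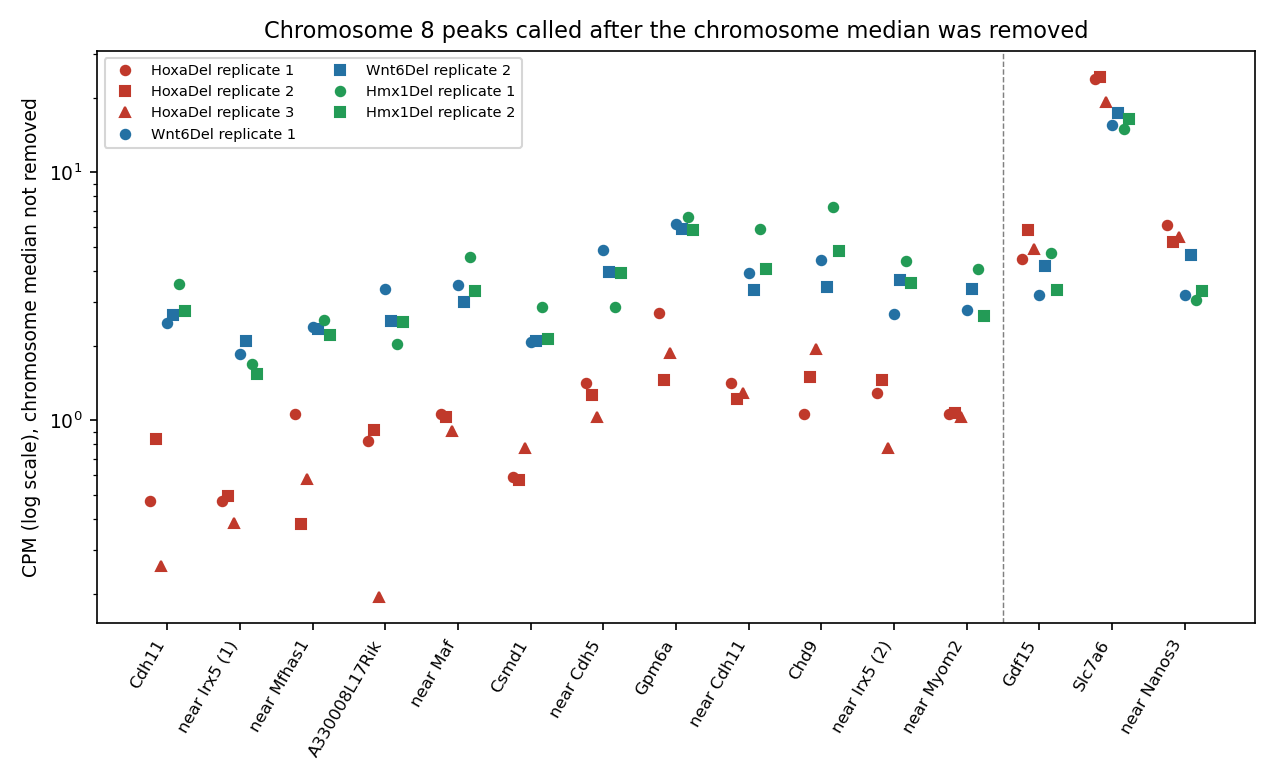
CPM on a log scale, with the chromosome median not removed, of 15 chromosome 8 peaks called after its removal, with a point for each library and peaks ordered by log2 fold change. Left of the dashed line are 12 peaks called lower, where all HoxaDel points lie below all others, and right of it the 3 called higher, where the groups overlap at Gdf15. The peaks were chosen for a difference between these groups.

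Just outside the fold minimum lay a peak 762 kb from Cdh11 at -0.99, a peak 50.5 kb from Rab4a at 0.97, 1 within Kifc3 at 0.96 and the Pdp2 promoter peak at 0.94. With no minimum on the fold change, 64 chromosome 8 peaks were lower (1.15%) and 143 higher (2.56%) after the median was removed. The same rule took 1.05% and 3.12% of all tested peaks, so that both shares were near the background. That background includes chromosome 6, where 8.65% of peaks passed in either direction, beside 3.71% on chromosome 8. Of the 143 higher peaks, 76 were above 0 before the median was removed, and their median log2 fold change was then 0.02. Single values ran from -0.31 to 0.57. All 64 lower peaks had a log2 fold change of -0.89 or lower before the median was removed.

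The peaks that were higher with no fold minimum were broad, strong and close to genes. Their median level was 12.7 CPM and their median width 817 bp, where the medians over the chromosome were 3.44 CPM and 444 bp. A promoter window was met by 21.7% of them and a gene by 83.9%, beside 10.4% and 60.5% over all tested chromosome 8 peaks. The 64 lower peaks had a median of 5.40 CPM and 634 bp, with 10.9% at a promoter window and 62.5% in a gene. Strong peaks have smaller errors and pass the test at smaller fold changes, and the part of that in these shares was not tested.

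Joined over gaps of up to 50 kb, the 143 higher peaks fell into 84 stretches, 28 of them with over 1 peak, and the 64 lower peaks into 44, 13 of them with over 1. Stretches were not counted on other chromosomes, so that these numbers have no background here. The stretches described here were picked after their values were seen, and each begins and ends at its own passing peaks. A stretch with 6 higher peaks reached Adgrl1, the gene for the synaptic adhesion receptor latrophilin, but the gene itself had 1 tested peak in it or within 2 kb, which was among the 6. The strongest call of the stretch, chr8:83873970-83875881, overlapped no gene and lay 24.2 kb from Adgrl1. It held 31.5, 35.2 and 32.4 CPM in HoxaDel and 25.7 to 28.1 CPM in the other libraries (0.90 ± 0.11 SE, edgeR adjusted p = 2.7e-08). HoxaDel was above all other libraries even in plain CPM. The stretch from Isyna1 to Gdf15 held 8 tested peaks, of which 7 were higher, with a median of 0.68 over those 7 alone. Fut10, a fucosyltransferase gene, had 5 tested peaks in it or within 2 kb, of which 4 were higher. The strongest call there held 24.9, 22.7 and 23.5 CPM in HoxaDel and 20.3 to 21.2 CPM elsewhere. The stretch around Tradd and Nol3, genes of cell death signalling, held 11 tested peaks, of which 7 were higher, with a median of 0.34 over those 7 alone. The strong peak at Fbxl8 and Hsf4 lay inside this stretch and was not higher (0.10, edgeR adjusted p = 0.495). Nol3 had 4 tested peaks in it or within 2 kb, of which 2 were higher. A stretch over Pdp2 and part of Cdh16 held 4, while Cdh16 had 8 tested peaks in all, 2 of them higher and with a median of 0.03.

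Among the lower stretches, Prag1 and Nkd1 had the most peaks. Prag1, a pseudokinase gene, had 4 tested peaks in it or within 2 kb, all lower, and the one at chr8:36093760-36095861 held 56.7, 55.4 and 54.4 CPM in HoxaDel and 108.8 to 130.3 CPM elsewhere. That was -1.14 on the log2 scale before and -0.57 ± 0.09 (SE) after the median was removed (edgeR adjusted p = 1.9e-05). Nkd1, an antagonist of Wnt signalling, had 13 tested peaks, of which 3 were lower. The strongest call of its stretch lay over the start of Gm35076, 7.80 kb from Nkd1, with 22.6 to 27.2 CPM in HoxaDel and 48.7 to 58.5 CPM elsewhere. At both peaks the groups did not overlap.

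**Figure D3:**
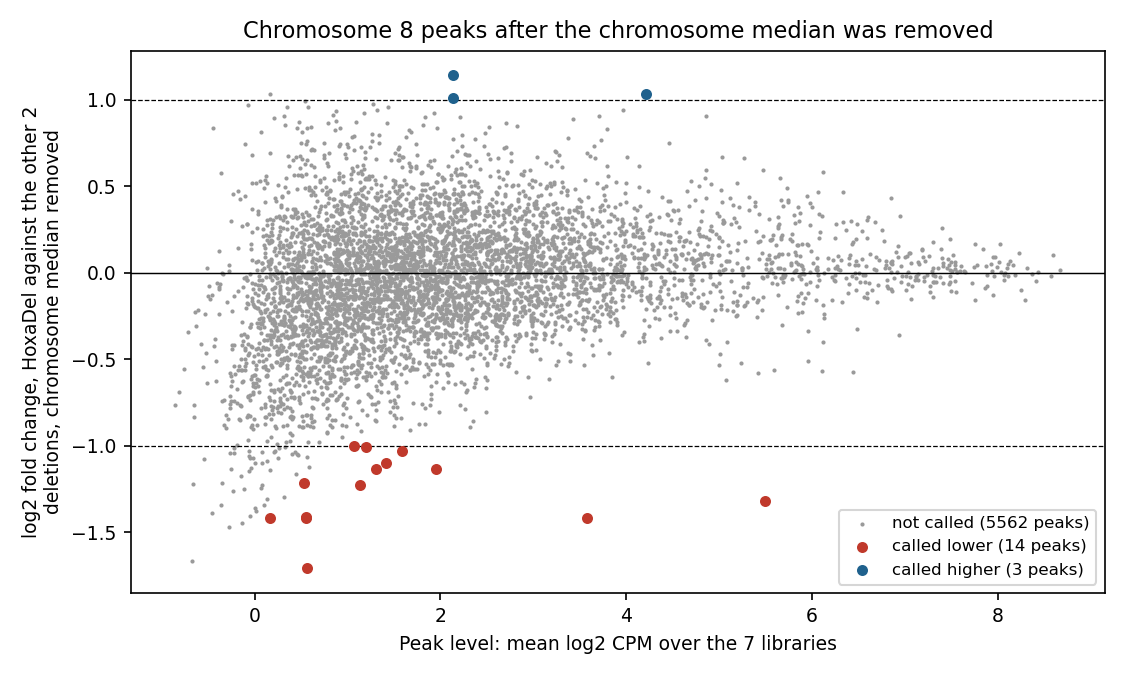
Log2 fold change of HoxaDel against the other 2 deletions after the chromosome median was removed, against peak level as mean log2 CPM over the 7 libraries, for the 5579 tested chromosome 8 peaks. Dashed lines mark the fold minimum, and called peaks (14 lower, 3 higher) are coloured. Weak peaks spread widest and reach furthest below 0, and the strongest gather around 0.

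The size of the shift varied with the level of a peak. Peaks were put into 5 groups of equal size by mean log2 CPM, set on all tested autosomal peaks, and chromosome 8 held more weak peaks than its share: 24.7% fell in the weakest group and 16.6% in the strongest. The median log2 fold change was -0.76 in the weakest group and then -0.61, -0.57, -0.53 and, in the strongest, -0.53. On the other autosomes the same groups had medians of -0.05, 0.01, 0.03, 0.05 and 0.02. Chromosome 8 therefore stood 0.71 below the other autosomes in the weakest group and 0.55 below them in the strongest. Per library, the strongest group minus the weakest was 0.01, 0.04 and 0.10 in HoxaDel and between -0.07 and -0.03 in the other 4 libraries. The groups did not overlap, and the difference was 0.11 (exact permutation test, two-sided, p = 0.0571, the smallest this design allows). Values of this test rest on log2 CPM with a prior count of 2, which draws weak peaks towards no difference. With a prior count of 5 the difference was 0.04 (exact permutation p = 0.286), and with 0.5 it was 0.15. The libraries on which peaks were called are not given. A weak peak that entered the list only through libraries where it was high would by itself look lower in the rest. The part of this in the level difference was not tested.

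The number of calls differed between the level groups. Before the median was removed, 244, 151, 85, 38 and 15 chromosome 8 peaks were called lower from the weakest group to the strongest. These were 17.7%, 13.8%, 7.62%, 3.58% and 1.62% of each group's chromosome 8 peaks. After it was removed, the calls in either direction were 5, 5, 4, 0 and 3 in the same order. With no minimum on the fold change, 5, 13, 36, 55 and 98 peaks had an adjusted p under 0.05 in edgeR's test. These were 0.362%, 1.19%, 3.23%, 5.18% and 10.6% of each group's chromosome 8 peaks. On the other autosomes the shares in the same groups were 1.26%, 2.07%, 3.46%, 6.12% and 8.06%, so that the rise with level was not particular to chromosome 8. Across peaks, fold change with the median removed and level had a Pearson's r of 0.23 and a Spearman's rho of 0.27 on chromosome 8 (5579 peaks of the same 7 libraries), and r was 0.05 on the other autosomes. Level enters both measures, so these correlations are descriptions only.

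**Figure D4:**
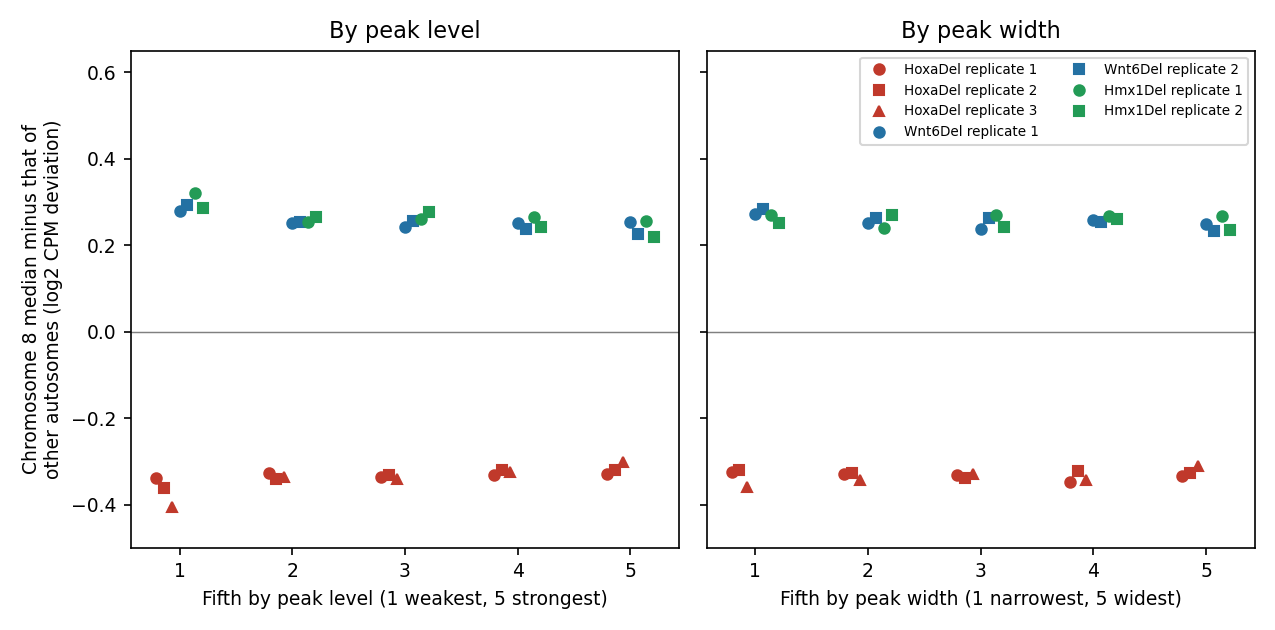
Chromosome 8 median of the log2 CPM deviation minus that of the other autosomes, per library, in 5 groups of peaks by level (left) and by width (right). The HoxaDel points lie between -0.41 and -0.30 and the other points between 0.22 and 0.32 in all groups, and the gap is widest for the weakest peaks.

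Width showed a smaller and less stable difference. From the narrowest to the widest group the median log2 fold change on chromosome 8 ran -0.68, -0.64, -0.57, -0.55 and -0.53. Per library, the widest group minus the narrowest was -0.01, -0.01 and 0.05 in HoxaDel and -0.05 to 0.00 in the others. The groups overlapped, and the difference of 0.03 did not pass (exact permutation test, two-sided, p = 0.171). Level and width went together across chromosome 8 peaks (r = 0.83, rho = 0.79). Within the middle level group the widest peaks were shifted further than the narrowest, by a difference of -0.21 (exact permutation p = 0.0571, the smallest possible), on 48 and 117 chromosome 8 peaks.

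Along the chromosome the shift was present in each stretch. In 13 windows of 10 Mb the median log2 fold change lay between -0.73 and -0.49, while no window of the 18 other autosomes was below -0.24. The deepest window ran from 50 to 60 Mb and the shallowest from 20 to 30 Mb. The window medians had an SD of 0.0666 on chromosome 8, within the range of 0.0552 to 0.110 on the other autosomes. The midpoint between the first and the last peak left 2082 tested peaks on the side of the first peak and 3497 on the far side. Per library, the far side minus the near side was 0.01, 0.02 and 0.04 in HoxaDel, 0.01 and 0.01 in Wnt6Del and -0.05 and -0.05 in Hmx1Del. The difference of 0.04 did not pass (exact permutation test, two-sided, p = 0.114), and the same quantity on the other autosomes ranged from -0.12 to 0.05.

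**Figure D5:**
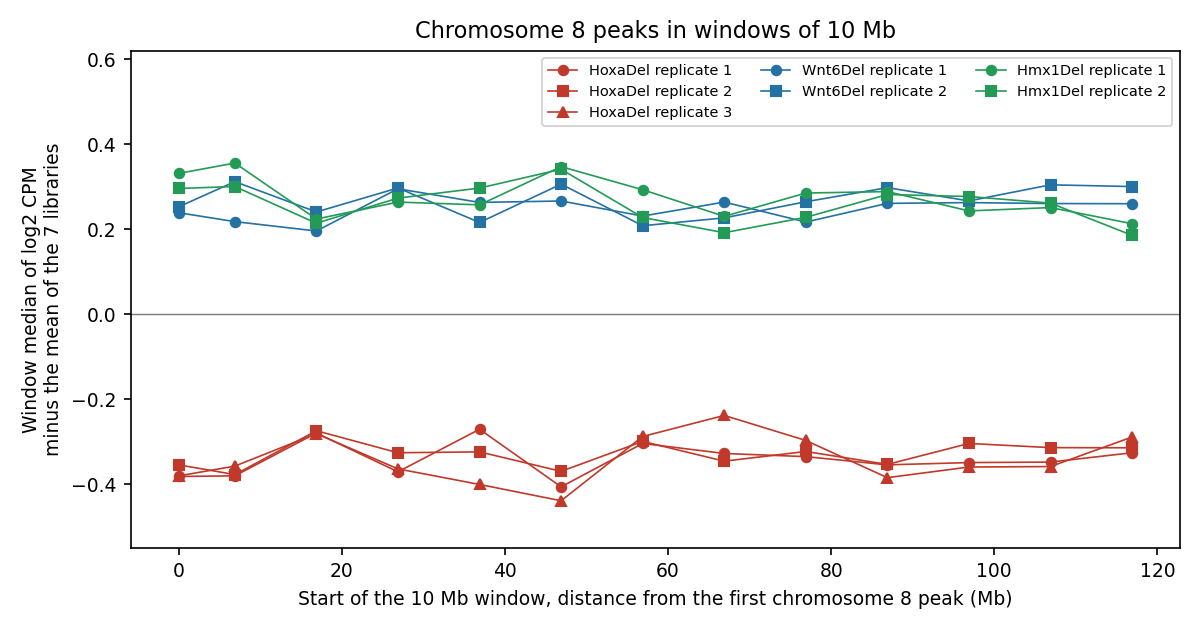
Median log2 CPM deviation from the mean of the 7 libraries in windows of 10 Mb along chromosome 8, plotted by distance from the first peak, with a line for each library. In all 13 windows the 3 HoxaDel libraries lie between -0.44 and -0.24 and the 4 others between 0.19 and 0.36.

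Gene groups on chromosome 8 were described by the peaks in a gene or within 2 kb of it, with no test of a list. The background is 9.55% of tested chromosome 8 peaks called lower and a median of -0.59. Weak peaks were called lower more often, and the groups differed in level. Their median CPM was 15.5 for developmental transcription factors, 4.01 for secreted signals, 2.55 for cadherins, 4.37 for neuronal, 5.45 for broadly expressed and 4.28 for clustered genes. By the same measure it was 3.46 over all tested chromosome 8 peaks. The part of level in the shares called was not tested. Developmental transcription factors, the classic Polycomb targets, had 135 peaks at all 17 genes, a median of -0.59 and 9 called lower (6.67%), of which 0 were called after the median was removed. Their leading peaks ran from 9.85 mean CPM at Sall1 to 304.4 at Foxf1. At Irx3, a homeobox gene of the Iroquois cluster, the leading peak held 217.8, 194.4 and 207.9 CPM in HoxaDel and 265.6 to 329.4 CPM elsewhere, which is -0.53 before and 0.03 after the median was removed. The corresponding values after removal were -0.02 at Irx5 and 0.04 at Irx6 of the same cluster. At Sox1, a regulator of the neural lineage, it was -0.00. At Hand2, which acts in heart and limb, it was 0.03, and none of these peaks was called. Before removal their edgeR adjusted p ran from 1.0e-07 to 8.0e-06, and only the fold minimum kept them from a call.

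Secreted signals, receptors and antagonists had 84 peaks at 15 of 17 genes, a median of -0.66 and 11 called lower (13.1%). After the median was removed, the Gdf15 peak was the only one called. At Fgfr1, a fibroblast growth factor receptor gene, the leading peak held 80.2, 74.6 and 77.4 CPM in HoxaDel and 75.3 to 92.0 CPM elsewhere, so that the groups overlapped in plain CPM. After the median was removed it stood at 0.47 (edgeR adjusted p = 0.00068), under the fold minimum. At Efnb2, the ephrin-B2 gene, CPM was 87.2, 86.6 and 82.2 in HoxaDel and 142.4 to 176.6 elsewhere. There the value after removal was -0.36 (edgeR adjusted p = 0.0059). The leading peaks of Sfrp1, a Wnt antagonist, Hhip, a hedgehog antagonist, and Fgf20 stood at 0.07, -0.14 and 0.01 and were not called.

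Cadherins had 88 peaks at 8 genes, a median of -0.75 and 16 called lower (18.2%), of which the Cdh11 peak above stayed called. Cdh13, a cadherin without a cytoplasmic tail, held 50 of the 88 peaks and 9 of the 16 calls. At Cdh1, the E-cadherin gene that mESCs express, the leading peak held 3.29 to 4.70 CPM in HoxaDel and 4.29 to 6.17 CPM elsewhere. At Cdh3 the only peak stood at 0.40 after removal (edgeR adjusted p = 0.0051). The leading peaks of Cdh5 and Cdh8 stood at -0.12 and 0.01 and were not called.

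Neuronal genes had 134 peaks at 13 genes, a median of -0.58 and 18 called lower (13.4%), and 2 stayed called after the median was removed, at Gpm6a and Csmd1. Csmd1, with 37 peaks, held 10 of the 18. At the leading peaks of Gnao1, a G protein subunit gene, Cbln1, a synapse organiser, Gpm6a and Glra3, a glycine receptor gene, the values after removal were -0.08, 0.06, -0.14 and -0.03. Broadly expressed genes had 19 peaks at 13 of 14 genes, a median of -0.57 and 0 called. The peaks at Ctcf, Lamp1, Cul4a and Tfdp1 held 10.1, 3.87, 11.5 and 9.51 mean CPM, with log2 fold changes of -0.75, -0.62, -0.60 and -0.26. Clustered tissue-specific genes, such as the defensins and carboxylesterases, had peaks at 11 of 84 genes, and the median of their 21 peaks was -0.76 with 2 called lower (9.52%) and 0 after removal. Leading peaks at the beta-defensin genes Defb39, Defb14, Defb4 and Defb6 held 1.21, 7.29, 1.95 and 1.51 mean CPM. The medians of all 6 groups lay between -0.76 and -0.57.

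Promoter peaks were split by the CG count of their window. The median log2 fold change was -0.54 for 139 chromosome 8 peaks with under 11 CG dinucleotides, -0.49 for 242 with 11 to 25 and -0.51 for 198 with over 25. On the other autosomes the same bins had medians of 0.06, 0.07 and 0.08. The shift therefore spanned promoters poor and rich in CG, and the split was chosen after the data had been seen.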

How the data were processed

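H3K27me3 Cut&Tag libraries of 3 HoxaDel, 2 Wnt6Del and 2 Hmx1Del samples were analysed, and 7 IgG libraries were not analysed here. The authors deposited raw counts per peak in 1 table, without normalization. The submitters' processing notes name Trimmomatic, Bowtie2, SAMtools, Picard, MACS2, deepTools and the build mm10. Versions, the making of the peak list, treatment of duplicates and whether starts count from 0 or 1 are not given in the sources used here. The labels do not say that replicates came from separate cultures, so p-values measure only the spread between these libraries, which may be technical. A column was matched to a sample by its title.

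Counts were scaled by TMM, filtered with filterByExpr by genotype, which removed 17 peaks, and tested with edgeR 4.0.16 (glmQLFit and glmQLFTest) in R 4.3.3 with limma 3.58.1, HoxaDel against both other deletions pooled. Calls needed a log2 fold change beyond 1 in size and an adjusted p (Benjamini-Hochberg, 74441 peaks) under 0.05. For the second fit, each chromosome with at least 100 tested peaks had its per-library median log2 CPM deviation (prior count 2) added to the offsets. Values per library were compared by exact permutation over samples. CPM values are TMM-scaled, and 1 count was 0.0261 to 0.169 CPM. DESeq2 1.42.0 was an alternative, with other scalings, filters, centrings, a replicate block, downsampling and each library left out. Scripts were tested on simulated data. Figures used matplotlib 3.10.9.

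Genes and promoter windows are RefSeq's (GRCm38.p6), which give gene bounds only, so that exons and introns were not told apart. Peaks named were up to 10 called peaks per direction by adjusted p with every HoxaDel library beyond all others after the median was removed (at most 2 per nearest gene), the 5 of highest mean CPM, and leading peaks of up to 4 genes per list in list order; others were picked after their values were seen. A further item that this rule names is not reported here. The members and the gene lists were chosen with earlier results of these data known.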

Additional observations from a re-analysis of the deposited data

How the results depend on the processing

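The chromosome 8 shift kept its direction under all alternatives run, between -0.61 and -0.53 on the log2 scale, the least with the share of counts in place of peak medians. The count called lower before the median was removed stayed within 1.5 times of 533, from 416 to 542 with a library left out, except that 2276 were lower with no minimum on the fold change. After the median was removed, 14 lower and 3 higher became 64 and 143 with no minimum on the fold change, 7 and 6 against Wnt6Del alone, 11 and 11 against Hmx1Del alone, and 9 and 4 with DESeq2, which gave no adjusted p for 1796 chromosome 8 peaks. Leaving out a library gave 8 to 17 lower, the least without Hmx1Del replicate 2, and 2 to 9 higher, the most without HoxaDel replicate 3, with 5 higher without Wnt6Del replicate 2 and 5 without Hmx1Del replicate 1. The higher count was also 7 with counts downsampled to the smallest library, 5 with the median of 10 Mb windows removed and 1 with offsets that also followed peak level; the cause was not tested.

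Libraries of the same number did not deviate together (correlations from -0.04 to 0.08 by title number and from -0.11 to 0.06 by library number), so the numbers were not taken to pair them. With a replicate block by title number 462 peaks were called before and 13 lower and 7 higher after the median was removed, and with a replicate block by library number 428, 11 and 5, with shifts of -0.61 and -0.60.

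The level difference of 0.11 kept its sign in all alternatives, from 0.09 to 0.15 with a library left out. All of these used the same peak list. The width difference ran from 0.02 to 0.06 with a library left out and reversed to -0.017 with a prior count of 5 and to -0.21 within the middle level group. The position difference ran from 0.02 to 0.06 with a library left out. The SD of window medians was 0.0962 in windows of 5 Mb and 0.0566 to 0.0795 with a library left out. The pairwise shifts against the other autosomes, -0.61 for Wnt6Del and -0.61 for Hmx1Del, ran from -0.63 to -0.60 and from -0.62 to -0.61 without a library. In these fits a group left with a single library was assumed to vary like the others. Broadly expressed genes had 1 peak called lower in place of 0 within 10 kb. Of 20 refits, the peak near Nanos3 stayed called in 19, those at Gpm6a and near Cdh5 in 18, near Maf in 17, at Slc7a6 and 921 kb from Cdh11 in 16, at Gdf15 in 14 and at Chd9 in 13. DESeq2 gave no adjusted p for 3 others, and of 19 refits the peak within Cdh11 stayed called in 19, at A330008L17Rik in 15 and near Mfhas1 in 11. With HoxaDel replicate 2 left out, calls were lost at Slc7a6, Gdf15, Gpm6a, Chd9, 921 kb from Cdh11 and near Mfhas1. Efnb2 without HoxaDel replicate 3 and Cdh3 without HoxaDel replicate 1 had adjusted p-values of 0.0576 and 0.0716 (edgeR). No called peak that was refitted changed its direction, nor did the 35 strongest, gene list and stretch peaks that were refitted.

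Only 3 libraries face 4, so a single permutation test cannot go below p = 0.0571, and the weakest called peaks rest on as few as 3 counts in a HoxaDel library.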
